A study of Mus musculus with 4 samples.

Results

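Cells cultured in Matrigel (MATR) were compared with cells cultured in a soft matrix (SOFT), both recovered from 1 pooled droplet channel of mouse mammary gland organoids. The comparison covered 7131 cells, 2958 of MATR and 4173 of SOFT, out of 7945 barcodes that passed quality limits in this pool and 17513 that passed in the whole series. Quality limits were a minimum of 1000 unique molecular identifiers (UMIs, each standing for 1 captured RNA molecule) and of 500 genes a barcode, and a ceiling of 15% on mitochondrial UMIs. Its side was read from antibody-borne hashtag oligonucleotides: each tag's count was divided by a fixed background value of that tag, and the larger scaled value had to be at least 2 times the smaller. Barcodes with at least 4 scaled units of both tags were set aside.

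The organoids were grown from the fat pads of virgin mice, 8 to 9 weeks of age, with the lymph nodes removed, and the labels name no strain, genetic change or drug on either side. After culture they were dissociated, each side was stained with its own TotalSeq-A antibody, and both were loaded together, so that handling after pooling, the channel and any free RNA in it were shared. Each side is 1 culture, and the labels do not say how many mice it came from. The tag of each culture is given only by the name under which the pool was deposited, which lists Matrigel with antibody 1 and soft with antibody 2, while the sample's own group label says soft alone. If the pairing were the other way round, every direction given here would turn.

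The mammary epithelium has an outer layer of contractile basal (myoepithelial) cells, marked by Krt5, Krt14 and smooth muscle genes, and an inner luminal layer. Luminal cells are of a hormone receptor-positive kind (HR-positive), which carries the receptors for oestrogen, progesterone and prolactin, and a receptor-negative kind (HR-negative), which includes the progenitors of milk-secreting cells. Matrigel is a gel of basement membrane proteins rich in laminin and type IV collagen. The series title places the study in the question of how matrix stiffness and collagen act on the potency of gland stem cells.

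The median MATR cell held 13267.5 UMIs and 3454 genes, and the median SOFT cell held 12067 UMIs and 3251 genes, with mitochondrial medians of 3.85% and 3.79%. The tag counts that chose the sides had medians of 564.5 Hashtag1 and 140 Hashtag2 in MATR cells and of 31 and 1047 in SOFT cells. Of the kept barcodes, 423 (5.3%) stayed unassigned and 391 (4.9%) carried both tags, the latter at a median of 33487 UMIs. Unassigned barcodes were unevenly spread, making up 13% of HR-negative, 5.93% of basal-like, 3.63% of fibroblast-like and 1.45% of HR-positive barcodes. Among 412 macrophage-like barcodes none was unassigned, which allows a share of up to 0.891% by exact 95% limits. Values along the tag ratio are therefore given below for selected genes.

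Cells were clustered on marker genes of 12 cell types, and each cluster was named from those markers. No cluster was led by pericyte, lymphocyte, adipocyte, Schwann or red blood cell markers. The shares of the lineages were similar on the 2 sides under the main tag rule. HR-positive luminal cells made up 44.8% of MATR cells (exact 95% interval 43.0 to 46.6%, 1326 cells) and 44.6% of SOFT cells (43.1 to 46.1%, 1860 cells). HR-negative luminal cells made up 27.7% of MATR (26.0 to 29.3%, 818 cells) and 30.3% of SOFT (28.9 to 31.7%, 1264 cells). Basal-like cells made up 9.36% and 10.1%, macrophage-like cells 5.17% and 6.21%, and fibroblast-like cells 4.16% and 4.05%. The intervals of every named lineage overlapped between the sides under that rule. The HR-negative share differed by -2.64 percentage points (MATR minus SOFT, 95% interval -4.78 to -0.48), an order that turned under another clustering resolution and under clustering on variable genes. The basal-like difference was -0.72 points (-2.13 to 0.7). It turned to 3.81 (2.41 to 5.22) with sides from HTODemux, another hashtag caller, and to 1.95 (0.5 to 3.43) at a tag ratio of 5. The macrophage-like difference was -1.03 points (-2.13 to 0.08) and widened to -6.5 (-8.38 to -4.64) with HTODemux.

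A cluster of HR-negative cells that also carried basal keratin transcripts, chiefly Krt14, accounted for 3.68% of MATR cells (109 cells) and 7.28% of SOFT cells (304 cells). It is called the Krt14-rich cluster below, and its median doublet score was 0.073. The genes that define it differ between the sides, so its size is given as a description. An unnamed cluster with markers of both luminal kinds, a median of 26489.5 UMIs and a median doublet score of 0.285, held 8.59% of MATR and 4.72% of SOFT cells and entered no lineage. Endothelial-like cells numbered 7 and 3 and were not compared.

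**Figure D1:**
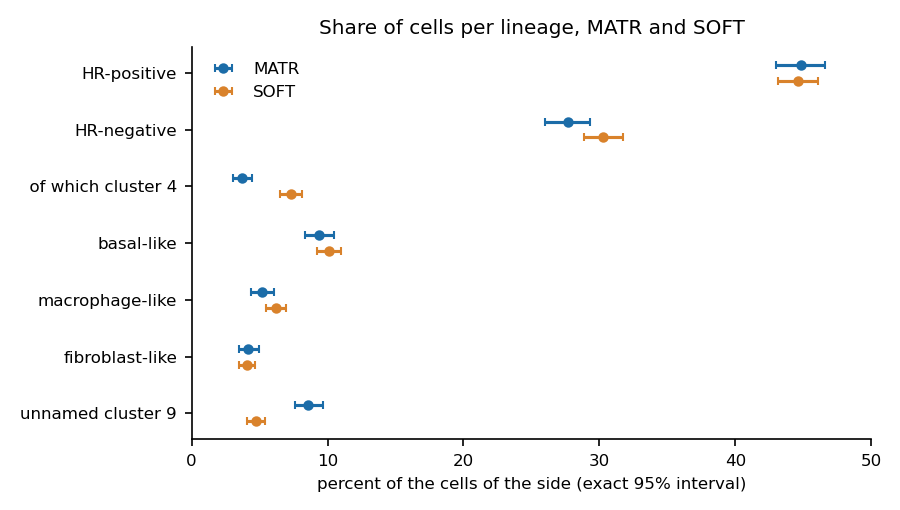
Share of cells in percent on each side for the lineages, with exact 95% binomial intervals that cover counting error only. HR-positive cells sit at 44.8% in MATR and 44.6% in SOFT, while the Krt14-rich cluster stands at 3.68% and 7.28%.

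Levels below are UMI counts scaled to a common total, CPM, from the UMIs of all cells of a lineage on a side added together. Each fold has an exact 95% interval from the 2 counts. These intervals cover counting error only, and with 1 culture a side the spread between cultures is unknown, so no test between conditions was possible and none is given. A gene is called higher on a side when log2 of the ratio of CPM + 10 passes 1.5-fold and the interval excludes equality, among genes with at least 100 UMIs in all and 20 CPM on a side. The log2 differences given are MATR over SOFT on this scale, which understates the differences of low genes. For gene lists, a member was measured from 5 CPM on a side and counted as higher by the same fold and interval, with no other floor.

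Over all cells, MATR was set apart by HR-positive luminal transcripts and SOFT by macrophage, matrix and keratin 17 transcripts. Of 5878 genes, 50 (0.851%) were higher in MATR and 98 (1.67%) in SOFT. Gpx3, a secreted glutathione peroxidase, measured 378 CPM in MATR and 92.9 CPM in SOFT (4.07-fold, 3.95 to 4.19). Defb14, a beta-defensin, measured 51.5 and 7.80 CPM (6.60-fold, 5.99 to 7.29). The keratins of stratified epithelia Krt78 (140 and 39.7 CPM), Krt4 (232 and 72.4 CPM) and Krt79 (56.7 and 17.8 CPM) were all over 3-fold higher in MATR. So were, by 2.07- to 2.82-fold, the membrane protein gene Prom2, F3 (tissue factor), the chemokine Cxcl15, Pdzk1ip1, Cyp3a57, Mlph and Greb1, a classical oestrogen target.

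On the SOFT side the largest all-cell differences were in the chemokines Ccl6 (26.5 CPM in MATR, 115 CPM in SOFT) and Pf4 (31.1 and 121 CPM), the neutrophil chemokine Cxcl2 (65.0 and 211.5 CPM) and the cytokine Il1b (24.1 and 76.7 CPM). With macrophage-like cells left out of the sums, the log2 differences of Ccl6, Pf4, Cxcl2 and Il1b shrank to -0.19, -0.48, -0.40 and -0.04, below the threshold. Ccl2, Srgn and Lyz2 also lost their calls (log2 differences -0.53, -0.18 and -0.53). Krt17 (30.1 and 76.7 CPM), the matrix glycoproteins Tnc (23.8 and 72.5 CPM) and Fn1 (62.7 and 143 CPM), Cxcl14 and S100a4 kept theirs. The comparison of all cells therefore mixes lineages, and the rest is given lineage by lineage.

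Pathway lists over all cells mostly showed few calls. Of 14 measured squamous keratin and cornified envelope genes, 4 were higher in MATR and none in SOFT, and of 12 hormone receptor and paracrine effector genes, 4 were higher in MATR and 1 in SOFT (median log2 difference 0.31, against -0.024 for all genes tested). Of 15 NF-kB and inflammatory genes 5 were higher in SOFT, and of 13 matrix proteases and their inhibitors 5. No measured member was called on either side among 13 glycolysis, 14 unfolded protein response, 18 respiratory chain, 13 S phase, 13 G2/M phase or 15 cholesterol genes.

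In HR-positive cells, MATR carried more Gpx3, Defb14, Krt4, Krt78 and Krt79 transcripts, and SOFT more Clu, Clca3a2, Calcb, Mt1 and Mt2 transcripts. Of 5628 genes, 68 (1.21%) were higher in MATR and 77 (1.37%) in SOFT. The cluster holding most of this lineage in MATR, led by Areg, Pcp4 and Sprr1a, held 360 MATR and 384 SOFT cells, and the one holding most in SOFT, led by Sprr1a, Cited1 and Pcp4, held 257 and 401. Gpx3 measured 746 CPM in MATR and 176 CPM in SOFT (4.24-fold, 4.09 to 4.39). Defb14 measured 105 and 17.6 CPM (5.94-fold, 5.34 to 6.63). The same order was measured at lower levels in macrophage-like cells, with Gpx3 at 206 and 47.9 CPM and Defb14 at 7.64 and 0.214 CPM. The part of free RNA or doublets in those levels was not tested. Krt4 measured 470 and 162 CPM (2.90-fold, 2.79 to 3.02). Krt78 measured 269 and 89.8 CPM (2.99-fold, 2.84 to 3.15). The level of Krt79 was 110 CPM in MATR and 37.5 CPM in SOFT (2.93-fold, 2.70 to 3.17). F3, which starts blood coagulation, measured 671 and 265 CPM, Prom2 155 and 60.1 CPM, and the secreted serine protease Prss23 331 and 135 CPM.

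The higher levels in MATR came with more cells carrying the transcript. With every cell thinned to 3000 UMIs, which left out 25 MATR and 54 SOFT cells, Krt4 was found in 52.2% of MATR HR-positive cells (679 of 1301) and 21.9% of SOFT cells (395 of 1806), with intervals that do not overlap. Unthinned, the shares were 75.3% and 36.9%. In macrophage-like cells, which should lack this keratin, the thinned shares were 7.64% and 1.6%. Krt78 was found in 43.2% and 17.6% of thinned HR-positive cells, Gpx3 in 41.3% and 15.8%, and Defb14 in 10.1% and 2.49%. Unthinned, Defb14 was found in 19.7% and 5.54%, so these shares depend on depth.

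**Figure D2:**
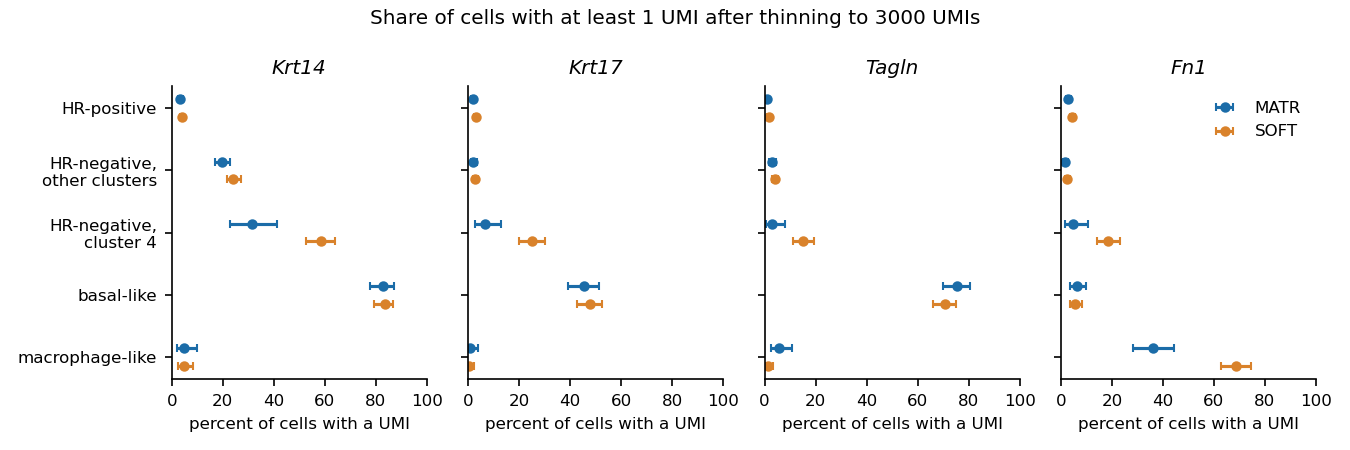
Percent of cells with at least 1 UMI of each gene after thinning every cell to 3000 UMIs, by side, with exact 95% intervals that cover counting error only. The genes are Krt14, Krt17, Tagln and Fn1, in HR-positive, HR-negative, basal-like and macrophage-like cells. The Krt14-rich cluster is drawn apart from the other HR-negative cells.

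Along the tag ratio, Gpx3 and Krt4 in HR-positive cells separated by side, while other genes also differed within a side. HR-positive cells with a MATR tag at least 16-fold over the other (910 cells) held 752 CPM of Gpx3, those at 4- to 16-fold (380 cells) 739 CPM, and those at 2- to 4-fold (36 cells) 604 CPM. The 47 unassigned cells held 117 CPM, and the 3 SOFT bins held 179, 171 and 188 CPM from the lowest to the highest ratio. Krt4 ran 468, 488, 337, 64.3, 99.7, 172 and 149 CPM over the same 7 bins. Clu, higher in SOFT, ran 1130, 840, 740, 1640, 1580, 2530 and 3280 CPM, so its level also differed among the bins of each side. F3 ran 695, 615, 369, 434, 146, 265 and 287 CPM, with the unassigned cells above all SOFT bins. Calcb ran 22.5, 12.1, 5.81, 16.1, 47.8, 81.7 and 101 CPM, and Clca3a2 128, 69.3, 49.4, 149, 207, 366 and 327 CPM. Both stayed lower in every MATR bin than in any SOFT bin. Reg3b ran 13.9, 0.724, 0, 276, 2.39, 86.5 and 66.5 CPM, and thus did not separate by side.

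**Figure D3:**
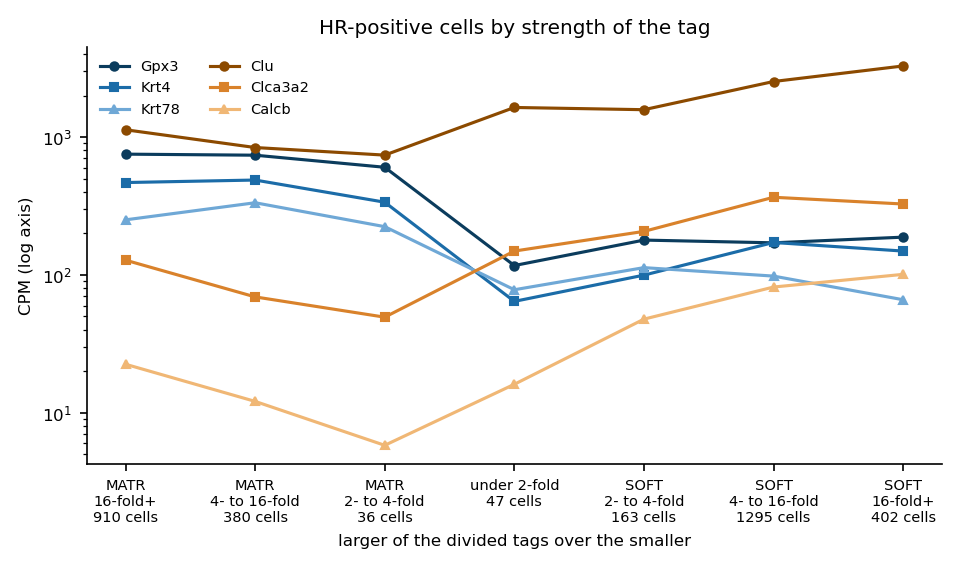
Level in CPM of selected genes against the hashtag ratio, in 7 bins from MATR-tagged through unassigned to SOFT-tagged cells. Gpx3 in HR-positive cells lies between 604 and 752 CPM in the 3 MATR bins and between 171 and 188 CPM in the 3 SOFT bins.

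Higher in SOFT HR-positive cells was clusterin (Clu), an extracellular chaperone, at 1056 CPM in MATR and 2690 CPM in SOFT (2.55-fold, 2.51 to 2.59). Clca3a2, of the chloride channel accessory family, measured 113 and 346 CPM (3.05-fold, 2.91 to 3.20) and was found in 15.8% and 30.9% of thinned cells. Calcb, which encodes the neuropeptide beta-CGRP, measured 19.9 and 85.3 CPM (4.30-fold, 3.84 to 4.81) and was found in 3.84% and 12.1% of thinned cells. Calca, its relative, went the other way, at 93.9 CPM in MATR and 55.4 CPM in SOFT (log2 difference 0.67). The antimicrobial lectin Reg3b measured 10.7 and 76.2 CPM (7.14-fold, 6.16 to 8.31), but it was found in 1.58% of MATR and 5.59% of SOFT cells, and 1 cell held 59.8% of its MATR UMIs. The MAP kinase phosphatase Dusp2 (13.5 and 61.3 CPM) and the EGF family ligand Epgn (17.6 and 52.8 CPM) were higher in SOFT as well.

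For 2 of the SOFT genes, the MATR level lies below that of macrophage-like cells in the channel. The siderophore-binding protein gene Lcn2 measured 598 CPM in MATR and 1557 CPM in SOFT HR-positive cells. In macrophage-like cells Lcn2 measured 1680 and 1180 CPM and in HR-negative cells 17700 and 19200 CPM, so the MATR level of HR-positive cells lies below that of macrophage-like cells and the SOFT level is 1.32 times it. Ceruloplasmin (Cp), a copper-carrying ferroxidase, measured 42.8 and 117 CPM, against 79.2 and 46.4 CPM in macrophage-like cells. Its SOFT level was 2.53 times the 46.1 CPM of SOFT fibroblast-like cells, the lowest of the other lineages. The share of free RNA in these 2 differences was not tested.

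Metallothioneins, small proteins that bind zinc and copper, were higher in SOFT HR-positive cells. Mt1 measured 1780 CPM in MATR and 3110 CPM in SOFT (log2 difference -0.80), and Mt2 315 and 612 CPM (-0.94). Mt2 was found in 46.2% and 62.1% of thinned cells. Macrophage-like cells had the same order, with Mt1 at 1080 CPM in MATR and 1750 CPM in SOFT (-0.69). So did basal-like cells, below the threshold, at 1700 and 2500 CPM (-0.55), while HR-negative cells stayed close, at 880 and 932 CPM. Fibroblast-like cells showed the opposite order, with Mt1 at 1760 CPM in MATR and 1140 CPM in SOFT and Mt2 at 496 and 276 CPM. These genes are induced through metal response elements, whose cores were searched as TGCACNC and TGCGCNC on both strands of the 250 bases before each start. The stretches below are shown because the pair moved together in HR-positive cells, and with them that of P4ha2, a collagen prolyl hydroxylase gene described under basal-like cells, searched for the hypoxia response element core ACGTG. Capitals mark the matches, and the sequences are from RefSeq on build GRCm38.p6, all on the plus strand: Mt1 at chr8:94178839-94179088, Mt2 at chr8:94172368-94172617 and P4ha2 at chr11:54100674-54100923.
Mt1: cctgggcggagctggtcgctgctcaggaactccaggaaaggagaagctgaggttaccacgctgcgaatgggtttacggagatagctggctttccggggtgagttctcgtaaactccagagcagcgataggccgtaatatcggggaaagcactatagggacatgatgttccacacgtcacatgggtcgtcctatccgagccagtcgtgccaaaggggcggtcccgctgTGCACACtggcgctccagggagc
Mt2: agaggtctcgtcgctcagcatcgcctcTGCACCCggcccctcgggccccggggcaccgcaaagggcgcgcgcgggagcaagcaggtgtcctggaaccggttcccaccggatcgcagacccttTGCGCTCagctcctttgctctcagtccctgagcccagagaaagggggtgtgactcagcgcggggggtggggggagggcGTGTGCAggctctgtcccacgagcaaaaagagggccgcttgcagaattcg
P4ha2: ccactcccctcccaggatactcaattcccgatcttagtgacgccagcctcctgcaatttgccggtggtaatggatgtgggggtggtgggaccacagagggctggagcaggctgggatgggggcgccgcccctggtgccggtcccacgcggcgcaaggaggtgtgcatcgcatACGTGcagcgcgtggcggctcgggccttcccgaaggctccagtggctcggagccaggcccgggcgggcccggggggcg
Mt1 held 1 metal core, Mt2 held 3 and P4ha2 held 1 hypoxia core. Of 32851 promoter stretches of this length, 21.4% held a metal core and 16.6% the hypoxia core, so a match is common and describes letters, not use.

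Among hormone genes of HR-positive cells, the receptors themselves stayed close while several effectors differed. Of 11 measured members 3 were higher in MATR and 1 in SOFT (median log2 difference 0.23, against -0.029 for all genes tested). The oestrogen receptor gene Esr1 measured 33.0 CPM in MATR and 29.1 CPM in SOFT, the progesterone receptor gene Pgr 246 and 217 CPM, and the prolactin receptor gene Prlr 2490 and 1720 CPM (log2 difference 0.53), below the threshold. Cxcl15 measured 228 and 99.2 CPM and Greb1 132 and 66.7 CPM. Esr1, Pgr and Prlr were among the genes on which cells were clustered.

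Other lists in HR-positive cells held some calls or none. Of 13 measured squamous keratin and envelope genes, Krt4, Krt78 and Krt79 were higher in MATR and Sbsn (36.9 and 61.3 CPM) in SOFT. The kallikreins Klk1 (28.2 and 2.80 CPM) and Klk1b27 (10.4 and 0.569 CPM) were counted higher in MATR, but 1 cell held 78.1% and 42.3% of their MATR UMIs. Without the top cell of each side, Klk1 stood at a log2 difference of 0.51, below the threshold. Haem oxygenase Hmox1 was higher in SOFT (39.2 and 87.7 CPM), and the alarmin Il33 in MATR (111 and 58.1 CPM). None of 8 AP-1 subunit genes was called (median log2 difference 0.08), nor were any of 13 glycolysis or 18 respiratory chain genes.

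**Figure D4:**
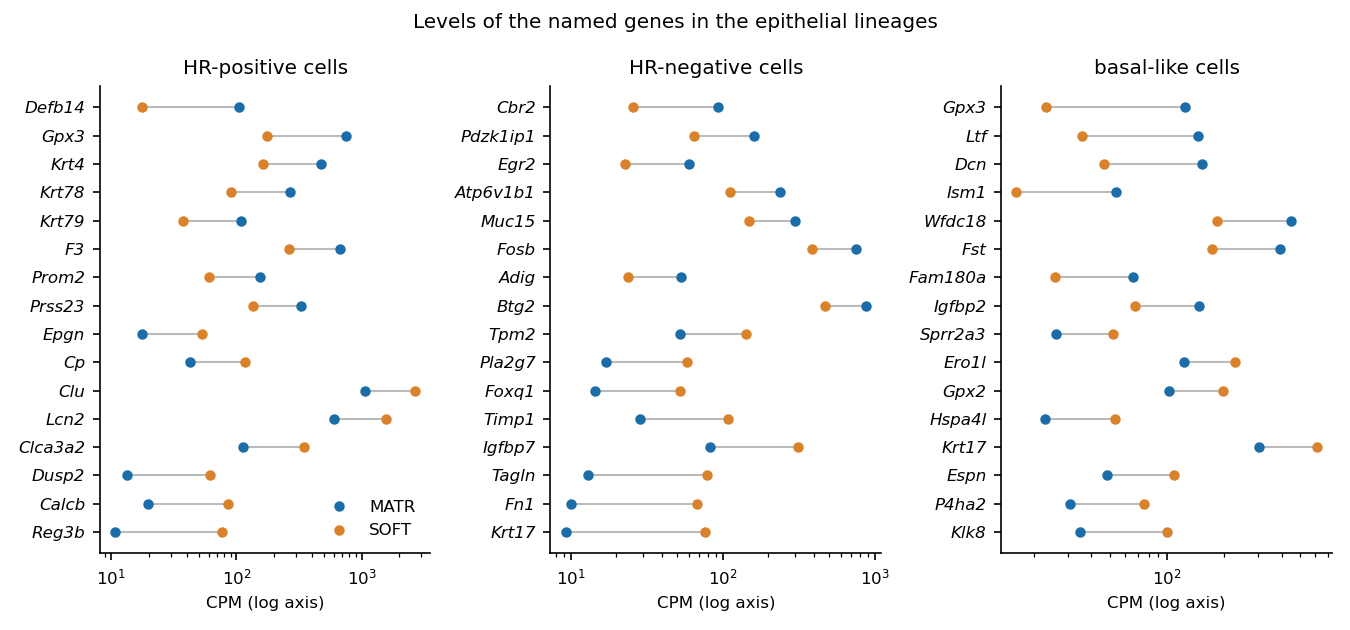
Level in CPM, on a log axis, of the named genes of the 3 epithelial lineages, with a dot for each side. Gpx3 in HR-positive cells stands at 746 CPM in MATR and 176 CPM in SOFT. Krt17 in HR-negative cells stands at 9.27 and 76.8 CPM.

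In HR-negative cells, SOFT carried more keratin 17, contractile and matrix transcripts and MATR more immediate early gene transcripts. Of 5651 genes, 51 (0.902%) were higher in MATR and 112 (1.98%) in SOFT. These calls depended on the clustering: with clusters from variable genes, 28 of the 51 and 23 of the 112 were still called. Keratin 17 (Krt17), a keratin of basal and stressed epithelium, measured 9.27 CPM in MATR and 76.8 CPM in SOFT (8.29-fold, 6.96 to 9.93). Fibronectin (Fn1) measured 10.1 and 67.7 CPM (6.67-fold, 5.64 to 7.94), against 35.6 CPM in SOFT HR-positive cells. Tagln, an actin-binding protein of contractile cells, measured 13.1 and 78.5 CPM (5.99-fold, 5.17 to 6.99). Igfbp7 measured 83.1 and 311 CPM, and Timp1, an inhibitor of metalloproteinases, 28.6 and 108 CPM. The transcription factor gene Foxq1 (14.6 and 52.1 CPM), Pla2g7 (17.2 and 57.9 CPM) and the tropomyosin gene Tpm2 (52.2 and 143 CPM) completed the leading genes of this side.

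The Krt14-rich cluster carried much of this. Without it, 34 genes were higher in MATR and 42 in SOFT, of which 33 and 35 were among the calls of the whole lineage. Krt17 then measured 5.29 CPM in MATR and 10.1 CPM in SOFT (log2 difference -0.39), and Fn1, Timp1 and Tpm2 lost their calls as well (-0.32, -0.43 and -0.42), while Tagln kept its call (14.1 and 32.0 CPM, -0.80). Within the cluster, Krt17 measured 34.4 and 257 CPM (-2.59), Tagln 6.88 and 204 CPM (-3.67) and Krt14 246 and 711 CPM (-1.49). The YAP target genes Ankrd1 (1.97 and 133 CPM) and Ccn2 (47.6 and 200 CPM) and the smooth muscle actin gene Acta2 (11.8 and 79.5 CPM) had the same order there. Krt14, Krt17, Tagln and Acta2 were among the clustering genes, whereas Fn1, Timp1, Ankrd1 and Ccn2 were not.

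The 2 sides of the Krt14-rich cluster thus differed in level as well as in number. After thinning, Krt14 was found in 31.5% of its MATR cells (22.9 to 41.1%, 108 cells) and 58.5% of its SOFT cells (52.7 to 64.1%, 301 cells), and Krt17 in 6.48% and 24.9%. Macrophage-like cells, which should lack keratins, had Krt17 in 0.694% and 0.4%. Fn1 was found in 4.63% and 18.3% of the cluster's cells. On the MATR side the cluster held more HR-positive transcripts, with Krt4 at 142 CPM against 16.1 CPM, Krt78 at 65.3 against 6.87 CPM and Prlr at 407 against 180 CPM. In the other HR-negative cells Krt5 or Krt14 was found in 19.9% of MATR and 24.5% of SOFT cells, against 2.78% and 2.80% in macrophage-like cells.

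Along the tag ratio, Krt17 in HR-negative cells ran 6.32, 11.7 and 4.99 CPM in the MATR bins from the highest ratio down, 6.52 CPM in 312 unassigned cells, and 55.9, 65.3 and 146 CPM in the SOFT bins from the lowest ratio up. The unassigned HR-negative cells, which are the most numerous of any lineage, thus had the Krt17 level of the MATR side. Krt14 ran 111, 128, 112, 197, 229, 286 and 383 CPM over the same bins, with the unassigned cells in between. Fn1 ran 30.8, 6.70, 3.82, 9.78, 25.7, 70.0 and 103 CPM, and Timp1 45.4, 26.3, 22.0, 20.6, 40.1, 104 and 201 CPM. For both, the MATR bin of the highest ratio (97 cells) lay above the SOFT bin of the lowest ratio (340 cells), so the bins overlapped. Tagln ran 14.6, 12.4, 13.8, 22.8, 43.0, 72.5 and 141 CPM, Cbr2 59.6, 91.2, 122, 61.9, 33.9, 25.2 and 19.7 CPM, and Fosb 728, 753, 767, 549, 367, 390 and 385 CPM. These 3 genes separated by side in every bin.

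By list, 5 of 9 measured contractile genes were higher in SOFT HR-negative cells and none in MATR (median log2 difference -0.59, against -0.051 for all genes tested). Of 6 matrix proteases and inhibitors 3 were higher in SOFT, of 8 S100 genes 2 and of 17 integrin and focal adhesion genes 2, with none of these in MATR. The luminal keratins stayed close, with Krt8 at 1420 CPM in MATR and 1580 CPM in SOFT and Krt18 at 2500 and 2620 CPM.

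Higher in MATR HR-negative cells was Cbr2, a carbonyl reductase, at 92.9 and 25.8 CPM (3.60-fold, 3.26 to 3.97), found in 15.3% and 5.95% of thinned cells. Immediate early genes, which respond within minutes to hours to stimuli, formed a second group: 4 of 7 AP-1 subunits were higher in MATR and none in SOFT (median log2 difference 0.62), as were 6 of 13 other immediate early genes (0.57). Fosb measured 752 and 386 CPM (1.95-fold, 1.90 to 2.01), Jun 2590 and 1580 CPM and Fos 3660 and 2340 CPM. Egr2 measured 59.7 and 22.9 CPM and was found in 15.7% and 5.30% of thinned cells, Btg2 measured 879 and 470 CPM, and Klf6 563 and 304 CPM. Without the Krt14-rich cluster 3 of 7 AP-1 subunits and 5 of 13 other immediate early genes were still called, with medians of 0.58 and 0.45. In HR-positive cells of the same 2 cultures, 0 of 8 AP-1 subunits and 1 of 13 other immediate early genes were called higher in MATR. In fibroblast-like cells 2 of 9 and 3 of 13 were, with Fosb at 537 and 232 CPM (log2 difference 1.18) and Fos at 1590 and 848 CPM (0.90), larger differences than in HR-negative cells. The differences between lineages were not tested.

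The remaining MATR genes of HR-negative cells were the proton pump subunit gene Atp6v1b1 (240 and 112 CPM), the mucin gene Muc15 (301 and 150 CPM), Pdzk1ip1 (160 and 65.3 CPM) and Adig (53.3 and 23.7 CPM). Of 9 milk protein genes 1 was called, the iron carrier transferrin (Trf, 5710 CPM in MATR and 3580 CPM in SOFT), with a list median of 0.45. The caseins included Csn1s1 at 562 and 394 CPM, below the threshold. Among acute phase genes, Saa2 was higher in SOFT (780 and 1290 CPM, log2 difference -0.72), while Saa1 (2490 and 3510 CPM, -0.50) and haptoglobin (Hp, 1070 and 1440 CPM, -0.43) stayed below the threshold. With the Krt14-rich cluster left out all 3 passed it, at -0.98, -0.71 and -0.65, and within that cluster Saa1 measured 734 and 720 CPM.

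Basal-like cells showed more hypoxia response and Krt17 transcripts in SOFT and more follistatin and growth factor binding protein transcripts in MATR. Of 5806 genes, 64 (1.10%) were higher in MATR and 33 (0.568%) in SOFT, from 277 and 421 cells with medians of 10028 and 7477 UMIs. The serine protease gene Klk8 measured 34.8 CPM in MATR and 100 CPM in SOFT (2.88-fold, 2.34 to 3.56) and was found in 10.0% and 22.2% of thinned cells. P4ha2, whose promoter is printed above, measured 30.8 and 75.8 CPM (2.46-fold, 1.97 to 3.10). Krt17 measured 304 and 613 CPM (2.02-fold, 1.88 to 2.17), the actin bundler Espn 48.2 and 109 CPM, the glutathione peroxidase Gpx2 102 and 197 CPM, Hspa4l 22.9 and 53.4 CPM and the protein disulphide oxidase Ero1l 122 and 226.5 CPM.

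Of 19 measured hypoxia response genes in basal-like cells 4 were higher in SOFT and none in MATR (median log2 difference -0.22, against -0.003 for all genes tested). They were P4ha2, Ero1l, Ddit4 (76.6 and 134 CPM) and Adm, which encodes a peptide that widens vessels (25.5 and 45.0 CPM). None of the 13 glycolysis genes was called, with a median of -0.11. With cells of the highest doublet scores left out, 5 of the 19 were higher in SOFT.

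In MATR, basal-like cells carried more follistatin (Fst), an antagonist of activins, at 393 CPM against 173 CPM (2.27-fold, 2.07 to 2.50), found in 49.8% and 28.6% of thinned cells. The secreted protein gene Ism1 measured 54.0 and 16.1 CPM (3.35-fold, 2.51 to 4.53) and was found in 37.5% and 11.9% of cells. The insulin-like growth factor binding protein genes Igfbp2 (146 and 68.0 CPM) and Igfbp5 (4230 and 2620 CPM), Ccn1 (533 and 283 CPM), the EGF family ligand Areg (249 and 123 CPM) and Fam180a (66.5 and 25.7 CPM) were also higher in MATR. Areg, one of the HR-positive markers used for clustering, was found in 20.6% of MATR and 17.3% of SOFT basal-like cells. Of its MATR UMIs 1 cell held 20.2%, and the part of doublets or free RNA in its level was not tested. With the cells of high doublet score left out, Ism1, Fst, Fam180a and Igfbp2 stood at log2 differences of 1.49, 1.25, 1.30 and 1.11. Over the 7 tag ratio bins, Fst ran 238, 510, 421, 324, 175, 172 and 169 CPM, Klk8 31.8, 40.7, 15.7, 87.8, 87.1, 102 and 125 CPM, and Krt17 294, 335, 170, 280, 619, 602 and 680 CPM. The bins of these 3 genes separated by side.

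The other leading MATR calls of basal-like cells were of genes also found in luminal or stromal cells. Their cell of origin was not tested. Gpx3 in basal-like cells ran 271, 27.5 and 18.9 CPM over the MATR bins from the highest tag ratio down. It stood at 21.9 CPM in unassigned cells and ran 17.6, 19.8 and 65.3 CPM over the SOFT bins from the lowest ratio up, so the bins overlapped. Lactoferrin (Ltf) ran 155, 155 and 53.4 CPM over the MATR bins. It stood at 65.8 CPM in unassigned cells and ran 18.7, 44.5 and 11.9 CPM over the SOFT bins, and thus separated by side. Of the MATR UMIs of Gpx3 (125 and 23.2 CPM), 1 cell held 47.1%, and of those of Ltf (146 and 35.5 CPM) 1 cell held 48.5%. Without the cells of high doublet score, which left 255 and 399 cells, Gpx3 fell to a log2 difference of 0.88 and decorin (Dcn) to 0.70. Both still passed 1.5-fold, while Ltf and Wfdc18 turned to -0.38 and -0.26 without those cells. The summed HR-negative marker level in basal-like cells was 2260 CPM in MATR and 1520 CPM in SOFT with all cells, and 1140 and 1430 CPM without them.

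The contractile programme of basal-like cells showed no calls among 14 measured genes (median log2 difference 0.08), with the smooth muscle myosin gene Myh11 at 308 CPM in MATR and 213 CPM in SOFT and Mylk at 286 and 193 CPM. Krt5 measured 623 and 536 CPM and Krt14 1090 and 1390 CPM. Basal calls depended on the tag rule more than those of other lineages: with sides assigned by HTODemux, a hashtag caller of the Seurat package, 104 and 97 genes were called, of which 33 and 13 were among the 64 and 33.

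Fibroblast-like cells of the 2 sides differed in the summed levels of pericyte, cell cycle, hypoxia and matrix genes. They numbered 123 and 169, with medians of 13944 and 18161 UMIs, and of 5800 genes 203 (3.50%) were higher in MATR and 180 (3.10%) in SOFT. Under TMM scaling the order turned, to 163 and 208 genes. Rgs5, a pericyte regulator of G protein signalling, measured 187 CPM in MATR and 41.2 CPM in SOFT (4.54-fold, 3.72 to 5.56) and was found in 29.6% and 11.9% of thinned cells. Of 8 measured pericyte markers 6 were higher in MATR and none in SOFT (median log2 difference 0.87, against 0.022 for all genes tested), including Higd1b (74.4 and 11.2 CPM) and Kcnj8 (57.5 and 14.7 CPM). Pericyte markers were among the clustering genes and no separate pericyte cluster formed. Whether the class holds pericytes beside fibroblasts was not tested.

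Elastin (Eln, 208 and 60.2 CPM), the lipocalin Apod (119 and 30.3 CPM), Ifitm1 (167 and 42.7 CPM), Sept4 (125 and 33.7 CPM), the matricellular protein gene Smoc2 (121 and 35.5 CPM) and the prostaglandin transporter Slco2a1 (138 and 44.7 CPM) were 3.10- to 3.94-fold higher in MATR. Of 14 basement membrane genes 5 were higher in MATR and 1 in SOFT, led by the type IV collagen genes Col4a1 (464 and 178 CPM) and Col4a2 (292 and 117 CPM). Of 17 G2/M genes 9 were higher in MATR and none in SOFT (median 0.61), and of 13 S phase genes 4. The proliferation marker Mki67 measured 55.3 and 15.9 CPM but was found in 8.94% of MATR and 10.7% of SOFT cells, and 1 cell held 38.6% of its MATR UMIs (34.7 and 11.9 CPM without the top cell of each side). For the other G2/M and S phase genes, the part held by single cells was not tested. Cxcl10, an interferon-induced chemokine, stood at 125 CPM in MATR from 228 UMIs and at 0.288 CPM in SOFT from 1 UMI, but 1 cell held 86% of the MATR UMIs.

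In SOFT, fibroblast-like cells carried more Mmp13, a collagenase (114 and 459 CPM), Tnc (345 and 760 CPM) and Tagln (1050 and 2000 CPM). Of 19 hypoxia response genes 7 were higher in SOFT and none in MATR (median -0.49), and of 15 cholesterol genes 4. Prr9 measured 0.547 and 69.2 CPM, from 1 UMI in MATR and 240 UMIs in 7.69% of SOFT cells (126-fold, 22.5 to 5010). Of the SOFT UMIs of the granzyme gene Gzme, 1 cell held 73.5%.

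Among the SOFT calls of fibroblast-like cells were macrophage markers and genes with high levels in HR-negative cells. Their cell of origin was not tested. Of the 180 SOFT calls, 122 were still made without the cells of high doublet score. Lyz2 measured 75.5 and 764 CPM and Pf4 2.74 and 79.0 CPM, and 8 of 9 measured macrophage markers were higher in SOFT, with summed levels of 111 and 948 CPM. Without the cells of high doublet score, which left 116 and 148 cells, the summed level was 105 and 107 CPM, none of 6 measured markers was called, and Lyz2, Pf4 and Hp stood at log2 differences of 0.05, -0.06 and -0.24. The acute phase genes Saa1 (29.0 and 297 CPM) and Saa2 (9.30 and 99.7 CPM) and the chitinase-like gene Chil1 (53.6 and 275 CPM) stayed higher in SOFT without those cells, at -2.05, -1.57 and -1.17. With all cells, 1 cell held 48.9%, 41.0% and 40.5% of their SOFT UMIs. Without the top cell of each side, the log2 differences were -2.14, -1.89 and -1.64. The pericyte, G2/M and hypoxia counts were 6, 8 and 8 without the cells of high doublet score, and were not recomputed without top cells.

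**Figure D5:**
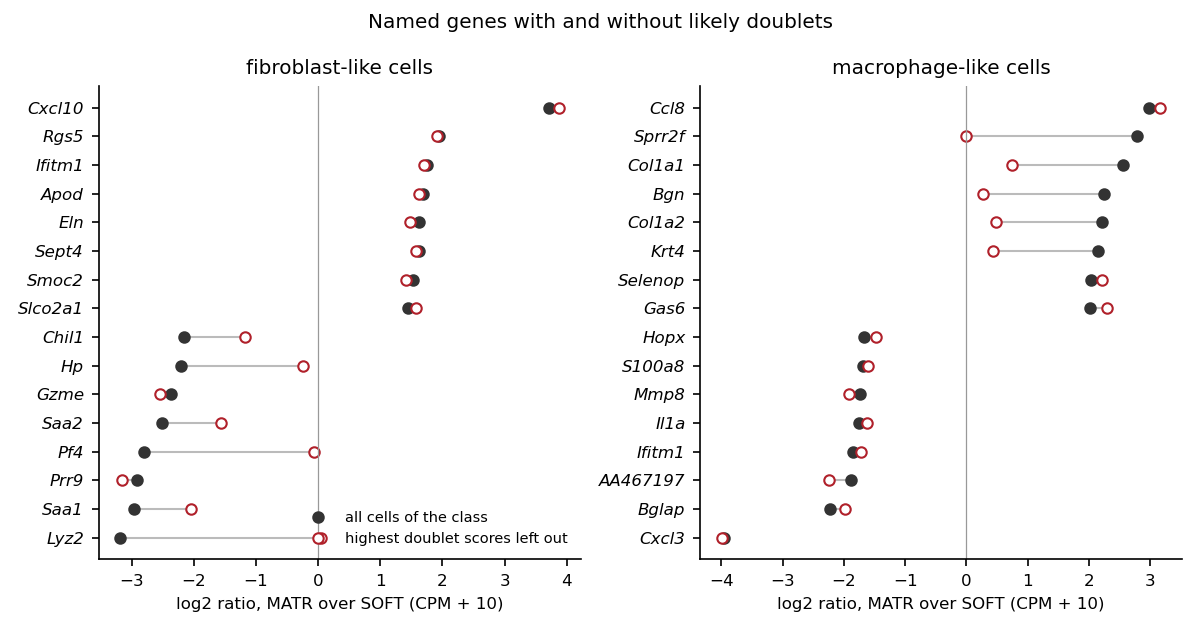
Log2 difference of MATR over SOFT (CPM + 10) for the named genes of fibroblast-like and macrophage-like cells, with all cells and without the cells of highest doublet score. Lyz2 in fibroblast-like cells moves from -3.18 to 0.05, while Ccl8 in macrophage-like cells moves from 2.98 to 3.16.

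Macrophage-like cells carried more transcripts of 7 of 16 NF-kB and inflammatory genes in SOFT and more Ccl8, Selenop, Gas6 and Mrc1 transcripts in MATR. They numbered 153 and 259, and of 5341 genes 238 (4.46%) were higher in MATR and 135 (2.53%) in SOFT. This balance depended on processing: TMM scaling, which moved the median log2 difference of all genes from 0.048 to -0.071, gave 159 and 201 genes, and leaving out the cells of high doublet score gave 166 and 148, of which 112 and 110 were among the first calls. The neutrophil chemokine Cxcl3 measured 4.83 CPM in MATR and 221 CPM in SOFT (45.8-fold, 26.1 to 88.9), and was found in 0.694% and 18.8% of thinned cells. The cytokine Il1a measured 74.8 and 275 CPM (3.67-fold, 3.15 to 4.31) and was found in 16% and 46.8%. Of 16 NF-kB and inflammatory genes 7 were higher in SOFT and none in MATR (median log2 difference -0.39, against 0.048 for all genes tested), with Tnf at 31.4 and 116 CPM, Cxcl2 at 1200 and 2690 CPM and Il1b at 453 and 997 CPM. Without the cells of high doublet score, 7 of 15 were higher in SOFT.

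Bglap (53.1 and 286 CPM), AA467197 (32.2 and 146 CPM), Ifitm1 (31.8 and 141 CPM), the collagenase gene Mmp8 (11.3 and 60.3 CPM), the calcium-binding alarmin S100a8 (19.7 and 86.2 CPM) and Hopx (20.9 and 88.7 CPM) were 4.24- to 5.38-fold higher in SOFT. Among effectors, Ccl6 (481 and 1470 CPM), Pf4 (570 and 1510 CPM), arginase (Arg1, 551 and 1400 CPM) and Fn1 (253 and 658 CPM) were higher in SOFT too. Ifitm1 had the opposite order in fibroblast-like cells.

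In MATR, the chemokine Ccl8 measured 248 CPM against 22.7 CPM (10.9-fold, 8.90 to 13.6) and was found in 16.7% and 1.20% of thinned cells. Selenop, a secreted selenium carrier, measured 938 and 221 CPM (4.25-fold, 3.95 to 4.58), and Gas6, a ligand of receptors for the uptake of dying cells, 142 and 27.8 CPM (5.12-fold, 4.18 to 6.31). The mannose receptor Mrc1 (101 and 26.3 CPM) and Gpnmb (335 and 137 CPM) were higher in MATR as well, and 3 of 6 MHC class II genes were, with H2-Eb1 at 59.9 and 18.4 CPM. Without the cells of high doublet score, which left 127 and 227 cells, Ccl8, Selenop, Gas6, Cxcl3 and Il1a stood at log2 differences of 3.16, 2.21, 2.30, -3.99 and -1.63.

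Epithelial and stromal transcripts also stood higher in MATR macrophage-like cells. All 5 measured fibroblast markers were higher in MATR, with summed levels of 386 and 121 CPM, and 7 of 8 luminal markers, with 3820 and 1980 CPM. Without the cells of high doublet score, 1 fibroblast marker (91.5 and 61.7 CPM summed) and 5 luminal markers (774 and 495 CPM summed) were. Col1a1, Col1a2, Bgn and Krt4 then stood at 0.74, 0.49, 0.27 and 0.43, and of the 362 MATR UMIs of Sprr2f, 1 cell held 89.8%. Among the 10 macrophage markers none was called, with a median of 0.16.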

How the data were processed

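The authors deposited a table of UMI counts per gene and cell barcode for the pool, with the hashtag counts beside it, and a second deposited entry holding the same counts was not used again. Reads had been processed with Cell Ranger 5.0.0 on build mm10, and Seurat 4.2.0 is named too, per the submitters' processing notes. The labels name reagents of differing chemistry versions, and their roles are not given in the sources used here. Of 8767 deposited barcodes 7945 were kept, and 19 kept barcodes also occurred in the other pool of the series.

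Cells were clustered on 84 of 101 marker genes with scanpy 1.11.5 and Leiden at resolution 0.5, and clusters were named from those markers. Counts were summed per side and lineage, divided by the total and given as CPM, with exact binomial intervals (scipy 1.17.1). Shares have exact Clopper-Pearson intervals. Thinning drew 3000 UMIs per cell. Barcodes with both tags were removed as doublets, and other doublets were kept unless stated; scrublet called 542 of 7554 barcodes without both tags, and the alternative left out the 600 assigned cells of the highest scores. The calling step was tested on simulated counts, drawn from the summed totals with counting error only. That test does not cover calls carried by 1 cell.

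Named genes are the 12 (all cells) or 8 (lineages) with the largest log2 difference on each side among called genes with at least 200 UMIs and 50 CPM. Of 88 symbols 69 had a promoter in the RefSeq table. The other genes are members of 36 pathway and 12 marker lists, singled out after their values were seen. The cells, lists and rules were chosen with earlier results of these data known. Alternatives were the tag rule (HTODemux in Seurat 5.3.0 under R 4.3.3, or a ratio of 5), cell filters, doublets, TMM scaling (edgeR 4.0.16), per-cell means, the pseudocount, the gene filter and the clustering. The cell junction list is not reported here.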

Additional observations from a re-analysis of the deposited data

Results flagged for a closer look

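Genes called at 2-fold or more in opposite directions in 2 lineages of the same 2 cultures are listed here, as log2 differences of MATR over SOFT. None of these differences between lineages was tested, since each side is 1 culture. Ifitm1 stood at 1.75 in fibroblast-like and -1.85 in macrophage-like cells, and Fst at 1.14 in basal-like and -1.36 in fibroblast-like cells. Chil1 stood at -2.16 in fibroblast-like and 1.46 in macrophage-like cells, Saa1 at -2.97 and 1.80, and Saa2 at -2.51 and 1.90 in the same pair of lineages. Without the cells of the highest doublet scores, Saa1 stood at -2.05 and 1.34 and Saa2 at -1.57 and 0.74. Of the SOFT fibroblast-like UMIs of Chil1, Saa1 and Saa2, 1 cell held 40.5%, 48.9% and 41.0%. Krt14 stood at -1.20 in HR-negative and 1.06 in fibroblast-like cells, and at 0.12 in fibroblast-like cells without those cells.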

How the results depend on the processing

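No paired analysis was possible because each side is 1 culture with no replicate number. Of 157 counts and shares recomputed under alternatives, 130 stayed within 1.5 times or within their interval, and of 1160 values of the 104 named entries 1131 kept direction and call, 24 lost the call and 5 turned. The 104 values under the other gene filter and the 104 under the smaller pseudocount could not lose a call. Their agreement was fixed in advance. TMM scaling changed no call of a named gene but turned which side had more calls in HR-positive (75 MATR and 71 SOFT), fibroblast-like (163 and 208) and macrophage-like cells (159 and 201). With HTODemux (2253 MATR and 1917 SOFT cells), 90 and 151 genes were called higher in MATR and SOFT over all cells, 90 in MATR in HR-negative cells, and 104 and 97 in basal-like cells, and the share differences (MATR minus SOFT, percentage points) were 3.81 for basal-like and -6.5 for macrophage-like cells. At a tag ratio of 5 the share differences were -5.91 for HR-negative and 1.95 for basal-like cells. With the cells of highest doublet score left out, 50 genes were higher in SOFT in basal-like cells, and Sprr2a3 (0.09), Ltf (-0.38) and Wfdc18 (-0.26) in basal-like, Lyz2 (0.05) in fibroblast-like and Sprr2f (-0.00) in macrophage-like cells turned. As a mean of per-cell CPM, the SOFT counts were 54 over all cells and 60 in basal-like cells. With a pseudocount of 1, counts were 90 (all cells, MATR), 121 (HR-positive, SOFT), 175 (HR-negative, SOFT), 150 and 98 (basal-like, MATR and SOFT) and 434 (macrophage-like, MATR). With a filter of 25 UMIs and 5 CPM, they were 51 (basal-like, SOFT), 353 and 280 (fibroblast-like) and 361 (macrophage-like, MATR). Clustering on 2000 variable genes gave 30 and 33 calls in HR-negative cells, of which 28 and 23 were among the 51 and 112 first calls. It turned their share difference to 3.36, and a resolution of 1.0 turned that difference to 0.90. Under the former, 323 MATR and 534 SOFT cells were in unnamed clusters, against 254 and 197. Without the Krt14-rich cluster, an alternative added after seeing the data like the 1-cell and macrophage ones, 42 genes were higher in SOFT in HR-negative cells. Precision is limited most in fibroblast-like and macrophage-like cells, with 123 to 259 cells a side, and by 1 culture a side throughout.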

Other observations

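The unnamed cluster with markers of both luminal kinds, 254 MATR and 197 SOFT cells, had the same order of Prlr, Krt19 and Krt14 as HR-positive cells. Prlr measured 1220 CPM in MATR and 786 CPM in SOFT there, Krt19, a luminal keratin, 5510 and 4170 CPM, and Krt14 45.1 and 84.2 CPM. In this cluster 62 genes of 5784 were higher in MATR and 47 in SOFT. Mki67 measured 4.39 and 3.83 CPM in it, against 50.3 and 82.1 CPM in macrophage-like cells, the highest of the lineages on the SOFT side. These values are descriptions of 1 culture a side.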
